A study of Arabidopsis thaliana with 18 samples.

Results

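The WRKY transcription factors of Arabidopsis were followed in leaves in which an immune receptor was switched on by a drop in temperature. The members were 60 WRKY loci taken by locus code from a table of 32678 genes, and RRS1 and RRS1B, immune receptor genes that carry a WRKY domain, were left out. Any other WRKY locus was not examined. Leaf RNA had been sequenced from 35S:RPS4-HS plants (35S:RPS4 in what follows), which express the TIR-type NLR receptor gene RPS4 in the Col-0 background from a constitutive promoter, and from Col-0 wild-type plants. Both lines grew for 3.5 weeks at 28 °C and were sampled there (0 h) or 4 h and 8 h after they were moved to 19 °C. Each of the 6 groups of line and time had 3 libraries. Col-0 went through the same shift, so that changes common to both lines could be set apart from those of the 35S:RPS4 line. No library stayed at 28 °C for 4 h or 8 h. In Col-0 the effects of the shift and of the time of sampling therefore cannot be told apart. The response was raised without a pathogen and from a promoter that is active in most leaf cells. The labels do not say whether replicates stem from separate plants or cultures, and p-values therefore reflect only how far these libraries spread.

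WRKY proteins bind the W-box, a short DNA element with the core TTGAC, through a domain that holds the residues WRKY and a zinc finger. The family is divided by its domains: group I proteins carry a pair of WRKY domains, group II proteins carry a single one and fall into the subgroups IIa to IIe, and group III proteins differ in their zinc finger. In leaves many WRKY genes respond to pathogens, to salicylic acid and to senescence, some as activators and some as repressors of immunity, and W-boxes are found in the promoters of many WRKY genes themselves. MAP kinases phosphorylate several group I members, and proteins with a VQ motif bind WRKY proteins as partners.

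The W-boxes TTGACC and TTGACT were searched on both strands in the 250 bases before each gene's annotated start (RefSeq, TAIR10.1). At least 1 was present in 22 of the 60 members (36.7%) and in 28.4% of 27443 protein-coding genes, and at least 2 were present in 10 members (16.7%) and in 6.18% of those genes. In group III 6 of 12 windows held a W-box and 4 of 12 held at least 2, whereas 0 of the 3 IIa windows held any. The other element searched, CGCG, is 1 form of CGyG (y for C or T), the core that CAMTA factors bind. CGCG was in 6 members (10%) and in 10.1% of all genes. The form CGTG was not searched, so these shares do not cover all CAMTA cores. The first 4 windows shown are from members that were higher in 35S:RPS4 and had at least 2 W-boxes. WRKY15, WRKY17 and WRKY29, also called higher at 4 h, had 2 each and are not shown. The fifth, that of WRKY41, is shown because it carries W-boxes like those of WRKY53 while its counts differed little between the lines. Capitals mark the W-boxes, read 5′ to 3′ along the gene's strand, so that GGTCAA and AGTCAA are W-boxes on the opposite strand.
WRKY33 (AT2G38470, TAIR10.1 chr2:16107985-16108234, plus strand): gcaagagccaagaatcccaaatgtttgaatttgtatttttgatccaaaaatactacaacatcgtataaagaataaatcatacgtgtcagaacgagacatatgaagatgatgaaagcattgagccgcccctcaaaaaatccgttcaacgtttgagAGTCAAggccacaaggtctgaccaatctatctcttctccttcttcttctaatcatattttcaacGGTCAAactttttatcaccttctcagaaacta
WRKY30 (AT5G24110, TAIR10.1 chr5:8154711-8154960, minus strand): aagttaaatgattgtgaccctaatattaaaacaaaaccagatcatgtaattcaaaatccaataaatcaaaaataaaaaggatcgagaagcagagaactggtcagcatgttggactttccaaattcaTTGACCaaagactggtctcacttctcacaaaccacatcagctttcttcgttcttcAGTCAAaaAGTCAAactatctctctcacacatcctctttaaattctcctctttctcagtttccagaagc
WRKY53 (AT4G23810, TAIR10.1 chr4:12393983-12394232, minus strand): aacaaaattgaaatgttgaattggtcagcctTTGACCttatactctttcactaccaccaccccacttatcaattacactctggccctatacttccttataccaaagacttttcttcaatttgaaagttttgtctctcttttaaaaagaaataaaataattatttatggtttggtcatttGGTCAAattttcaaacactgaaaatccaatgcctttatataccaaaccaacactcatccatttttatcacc
WRKY62 (AT5G01900, TAIR10.1 chr5:352096-352345, minus strand): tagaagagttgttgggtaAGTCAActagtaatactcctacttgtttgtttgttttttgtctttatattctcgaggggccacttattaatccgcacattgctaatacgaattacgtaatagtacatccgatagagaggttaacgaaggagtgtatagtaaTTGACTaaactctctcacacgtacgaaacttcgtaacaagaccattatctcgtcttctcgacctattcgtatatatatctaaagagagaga
WRKY41 (AT4G11070, TAIR10.1 chr4:6758848-6759097, plus strand): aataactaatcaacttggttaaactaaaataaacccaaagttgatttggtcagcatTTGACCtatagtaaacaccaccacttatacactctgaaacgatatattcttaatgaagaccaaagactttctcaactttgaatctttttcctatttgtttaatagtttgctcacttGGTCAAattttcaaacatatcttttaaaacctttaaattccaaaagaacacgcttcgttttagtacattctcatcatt
In each window the capitals start 96 and 32 bases before the start of WRKY33, 124, 69 and 61 before WRKY30, 219 and 71 before WRKY53, 232 and 91 before WRKY62, and 194 and 78 before WRKY41. None of the 5 windows overlapped an exon of another gene. The windows of WRKY53 and WRKY41, group III genes of closely related sequence, were identical at 60.2% of 294 aligned positions and shared a run of 19 bases that spans the inner W-box.

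The libraries held 23876651 to 36291942 counts in genes, and 3 counts, the level that a gene without a count could still have had, were 0.0845 to 0.15 CPM (counts in 1000000 counts of a library). Library sizes for CPM were scaled by TMM. Genes were called at an adjusted p under 0.01 with more than a 2-fold difference in edgeR's quasi-likelihood fit over all libraries, Benjamini-Hochberg adjusted over 20023 genes. Of the 60 members 49 passed the filter on low counts and were tested. Exons of 11 members, among them WRKY33, WRKY40, WRKY41 and WRKY53, overlap an exon on the opposite strand, and reads of such partners may be in their counts, since the strand setting of the counting was not given. The RPS4 gene itself was higher in 35S:RPS4 at 0 h, 4 h and 8 h (log2FC 6.16, 7.22 and 5.43). Leaf markers (RBCS1A, RBCS3B, CAB1, CAB3 and RCA) were abundant in all libraries, and the root genes BGLU21 and LRX1 and the flower gene AP1 were at or near 0. The root gene PYK10 had 31.8 to 74.2 CPM in 35S:RPS4 at 0 h, against 7.78 to 25.7 CPM in Col-0, and at most 17 CPM in any library after the shift. The flower gene SEP3 had 0.762 to 2.25 CPM in 35S:RPS4 at 8 h, against 24.1 to 88 CPM in Col-0, and AG was at 1.21 CPM or less throughout. In Col-0 at 0 h the libraries were split in 6 jasmonate response genes, with a mean log2 CPM of 5.07 in replicate 1, against 8.07 and 7.84 in replicates 2 and 3. The 35S:RPS4 libraries at 0 h had 5.89, 4.68 and 6.21, so that replicate 1 lay within their range and replicates 2 and 3 above it. Replicate 2 held the highest value of the group for 30 of the 49 tested members. Results that rest on this group are therefore also given with replicate 1 alone.

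Before the shift, no WRKY gene was called between the lines: 0 of 49 were higher and 0 lower in 35S:RPS4, beside 0.00999% and 0% of all genes tested, and DESeq2 and limma voom called 0 as well. An unadjusted p under 0.05 was found for 6 members (12.2%), all lower in 35S:RPS4, and for 9.6% of all genes, 62.3% of them lower, so that the share of members was near that of all genes. WRKY18, which with its IIa relatives restrains basal resistance to powdery mildew, had 6.7, 4.12 and 11.1 CPM in 35S:RPS4, against 5.17, 52.7 and 22.6 CPM in Col-0 (log2FC -1.87 ± 0.55 SE, adjusted p = 0.257). The lines overlapped because Col-0 replicate 1 lay within the range of 35S:RPS4. Without that library WRKY18 was called lower in 35S:RPS4 (log2FC -2.36, adjusted p = 0.00305), and with it as the only Col-0 library the sign turned (log2FC 0.50, adjusted p = 0.964).

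At 4 h after the shift, 28 of the 49 tested WRKY genes (57.1%) were higher and 1 was lower in 35S:RPS4, beside 16.6% and 12.4% of all genes. The median log2FC of the tested members was 2.91, and that of all genes was -0.01. At 8 h 31 members (63.3%) were higher and 3 lower, beside 26.6% and 30.1% of all genes, with a median of 3.20 for the members and -0.10 for all genes. The filter used all groups. WRKY31, WRKY38, WRKY55, WRKY59, WRKY62, WRKY67 and WRKY75 passed it through 35S:RPS4 libraries after the shift, with almost no counts elsewhere. WRKY51 and WRKY63, with low counts in most other libraries, also needed those 35S:RPS4 libraries to pass. Such members could hardly be called lower, and they are within the counts, shares and medians of members here and below. The tested members without counts in Col-0 had lower bounds far above both medians, so that setting them to these bounds could not move the medians. With libraries scaled by their totals alone the median of all genes moved to -0.43 at 4 h and -0.34 at 8 h, and that of the members to 2.51 and 2.96. With this scaling 23 members were higher and 2 lower at 4 h, and 28 higher and 5 lower at 8 h. Since leaves were sequenced whole, a rise per cell and a change in the share of cells that express a gene cannot be told apart.

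The 60 genes together took 0.549% ± 0.0635 of all gene counts in 35S:RPS4 at 4 h and 0.703% ± 0.0156 at 8 h, against 0.0364% ± 0.00231 and 0.0421% ± 0.00507 in Col-0 (SD, n = 3 libraries). At 0 h the shares were 0.0229% ± 0.00041 in 35S:RPS4 and 0.0292% ± 0.0082 in Col-0. In 35S:RPS4, 8 members were at 100 CPM or more at 4 h and 12 at 8 h, 3 of them above 1000 CPM at each time, whereas no member reached 100 CPM in any Col-0 group. Per kilobase of exon the most abundant members in 35S:RPS4 at 4 h were WRKY46, WRKY70 and WRKY33 (mean RPKM 1696, 753 and 526), and at 8 h WRKY70, WRKY46 and WRKY51 (1098, 881 and 657). At 0 h WRKY1 led in both lines, at a mean RPKM of 22.3 in 35S:RPS4 and 22.2 in Col-0.

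**Figure D1:**
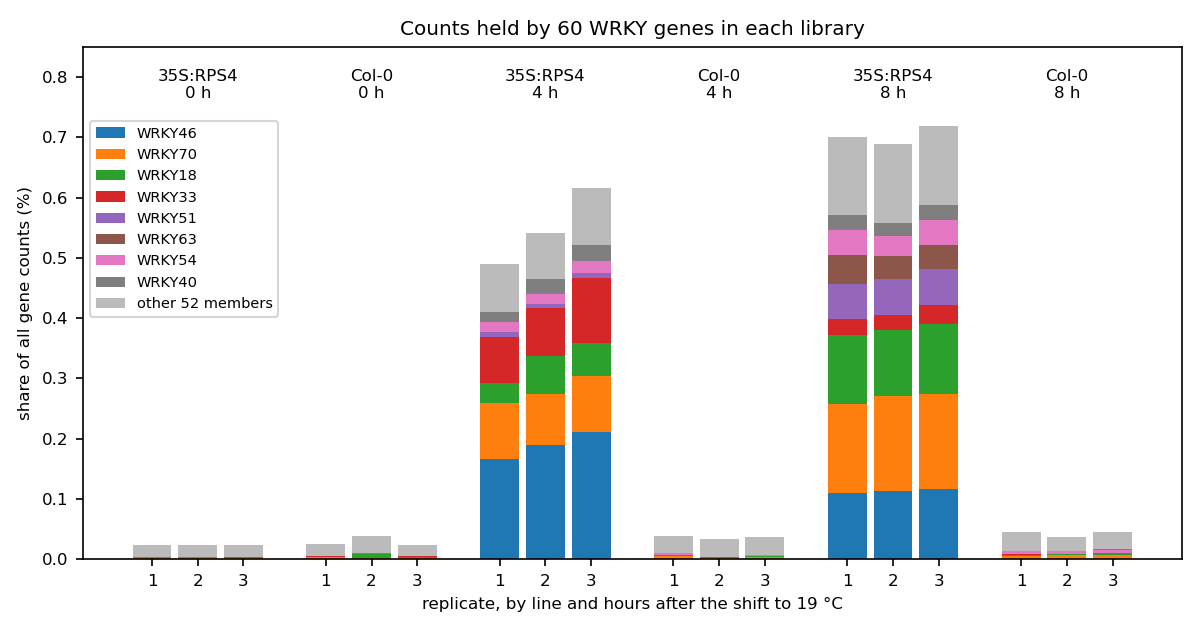
Share of all gene counts held by the 60 WRKY genes in each of the 18 libraries, stacked by gene (vertical axis in percent, from 0; horizontal axis the replicate, by line and hours after the shift). The 35S:RPS4 libraries held 0.489% to 0.616% at 4 h and 0.688% to 0.719% at 8 h, and no Col-0 library held more than 0.0456%.

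Group IIa, whose members WRKY18, WRKY40 and WRKY60 form complexes with each other, was the only class with every member higher at both times. WRKY40 had 199, 288 and 339 CPM in 35S:RPS4 at 4 h, against 0.346, 1.71 and 1.33 CPM in Col-0 (log2FC 7.92 ± 0.83 SE, adjusted p = 4.95e-07). At 8 h it had 268, 209 and 260.5 CPM in 35S:RPS4, against 0.518, 0.69 and 3.25 CPM in Col-0 (log2FC 7.36 ± 0.81 SE, adjusted p = 2.76e-07). For WRKY18 the mean levels were 616 ± 189 CPM in 35S:RPS4 at 4 h and 1201 ± 69 CPM at 8 h, against 8.41 ± 1.72 and 19.2 ± 5.75 CPM in Col-0 (log2FC 6.19 and 5.97; SD, n = 3). WRKY60 averaged 19.3 ± 0.957 CPM in 35S:RPS4 at 4 h and 86 ± 9.27 CPM at 8 h, against 0.779 ± 0.17 and 1.3 ± 0.588 CPM in Col-0 (log2FC 4.63 and 6.05). None of the 3 genes had a 35S:RPS4 library within the range of Col-0 at 4 h or 8 h.

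Group III genes, several of which act in salicylic acid responses, were higher for 8 of 11 tested members at 4 h and for 9 at 8 h, and 0 were lower. WRKY46, which acts in basal resistance to Pseudomonas syringae together with WRKY53 and WRKY70, had 1979, 2272 and 2639.6 CPM in 35S:RPS4 at 4 h, against 3.88, 5.17 and 3.69 CPM in Col-0 (log2FC 9.08 ± 0.31 SE, adjusted p = 1.02e-12). At 8 h it had 1207, 1159 and 1212 CPM in 35S:RPS4, against 1.91, 1.61 and 3.29 CPM in Col-0 (log2FC 9.04 ± 0.31). The lowest 35S:RPS4 value was more than 1000 CPM above the highest Col-0 value at both times. WRKY70, which favours salicylic acid over jasmonate responses, averaged 1106 ± 77.6 CPM in 35S:RPS4 at 4 h and 1614 ± 13.5 CPM at 8 h, against 27.3 ± 16.5 and 54.2 ± 10.3 CPM in Col-0 (log2FC 5.34 and 4.90). Its partner in that role, WRKY54, averaged 220.2 ± 32.6 and 413 ± 59.3 CPM in 35S:RPS4 at 4 h and 8 h, against 16.9 ± 11.8 and 44.9 ± 2.6 CPM in Col-0 (log2FC 3.70 and 3.20). WRKY54 and WRKY70 thus stood high in the transgenic line while also being among the most abundant members of Col-0 at 8 h.

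Other group III genes were close to absent in Col-0. WRKY62, which with WRKY38 restrains resistance to Pseudomonas, had 1.15, 4.61 and 3.84 CPM in 35S:RPS4 at 4 h and 44.9, 42 and 36.4 CPM at 8 h, and 0 counts in all 6 Col-0 libraries of these times. It was at least 101-fold higher at 4 h and at least 1255-fold higher at 8 h, against a floor of 3 counts over the Col-0 group. WRKY63, a gene of abscisic acid and drought responses, had 5.65, 1.6 and 6.1 CPM in 35S:RPS4 at 4 h, against 0.0346, 0.23 and 0 CPM in Col-0. At 8 h WRKY63 had 527, 390.5 and 408 CPM in 35S:RPS4, against 0, 0.132 and 0.0325 CPM in Col-0 (log2FC 12.88 ± 0.89 SE, adjusted p = 8.78e-10). Its neighbour on chromosome 1, WRKY67, lies 18659 bases upstream of it and was called at 8 h but not, in the fit reported, at 4 h. WRKY67 had 0.1, 0.821 and 0.121 CPM in 35S:RPS4 at 4 h, against 0.0692, 0.0658 and 0 CPM in Col-0, just short of a call, and 6 alternatives called it higher (log2FC 2.86 to 3.34, adjusted p = 0.00196 to 0.00979). Its values at 8 h were 82, 84.7 and 62.3 CPM in 35S:RPS4, against 0.0324, 0 and 0 CPM in Col-0, a ratio of 7059 over a single count (95% interval 1266 to 2.788e+05, counting error only). WRKY38 averaged 16 ± 2.18 CPM in 35S:RPS4 at 8 h, against 0.261 ± 0.172 CPM in Col-0 (log2FC 5.92). At 4 h it averaged 0.408 ± 0.479 CPM in 35S:RPS4, against 0.0216 ± 0.0374 CPM in Col-0, a ratio of 16.7 over 2 counts in Col-0 (95% interval 4.17 to 144.8) that was called in 3 alternatives only (adjusted p = 0.00183 to 0.00941). WRKY66 was below the filter, with 59 counts in 35S:RPS4 at 8 h and 0 in every other group.

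Of the remaining group III members, WRKY30, WRKY53 and WRKY55 were called at 4 h and WRKY41 was not. WRKY30, a gene of oxidative stress responses with 3 W-boxes in its window, averaged 41.4 ± 13 CPM in 35S:RPS4 at 4 h and 8.47 ± 1.91 CPM at 8 h, against 0.726 ± 0.323 and 0.358 ± 0.396 CPM in Col-0 (log2FC 5.82 and 4.55). WRKY53, a regulator of leaf senescence, had 27.9, 47.4 and 44.8 CPM in 35S:RPS4 at 4 h, against 2.56, 2.99 and 2.98 CPM in Col-0 (log2FC 3.81 ± 0.39 SE, adjusted p = 3.51e-07). At 8 h it had 14.4, 11.7 and 18.3 CPM in 35S:RPS4, against 2.27, 3.75 and 7.03 CPM in Col-0 (log2FC 1.77 ± 0.36 SE, adjusted p = 0.000274). WRKY41, whose window resembles that of WRKY53, averaged 0.581 ± 0.305 CPM in 35S:RPS4 at 4 h and 0.337 ± 0.0763 CPM at 8 h, against 0.276 ± 0.218 and 0.239 ± 0.101 CPM in Col-0, and was not called (log2FC 1.05 ± 0.73 and 0.47 ± 0.76). WRKY55, which lies 919 bases from WRKY54 on chromosome 2 and faces it, averaged 1.18 ± 0.534 CPM in 35S:RPS4 at 4 h, against 0.11 ± 0.162 CPM in Col-0 (log2FC 3.36 ± 0.87 SE, adjusted p = 0.0059), and was not called at 8 h. That call was lost without 35S:RPS4 4 h replicate 1 or 3 or Col-0 4 h replicate 1 or 3 (log2FC 2.79 to 3.26, adjusted p = 0.0157 to 0.0284), with library totals alone (log2FC 2.95, adjusted p = 0.0102) and in a fit of only the groups compared (log2FC 3.36, adjusted p = 0.0146).

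**Figure D2:**
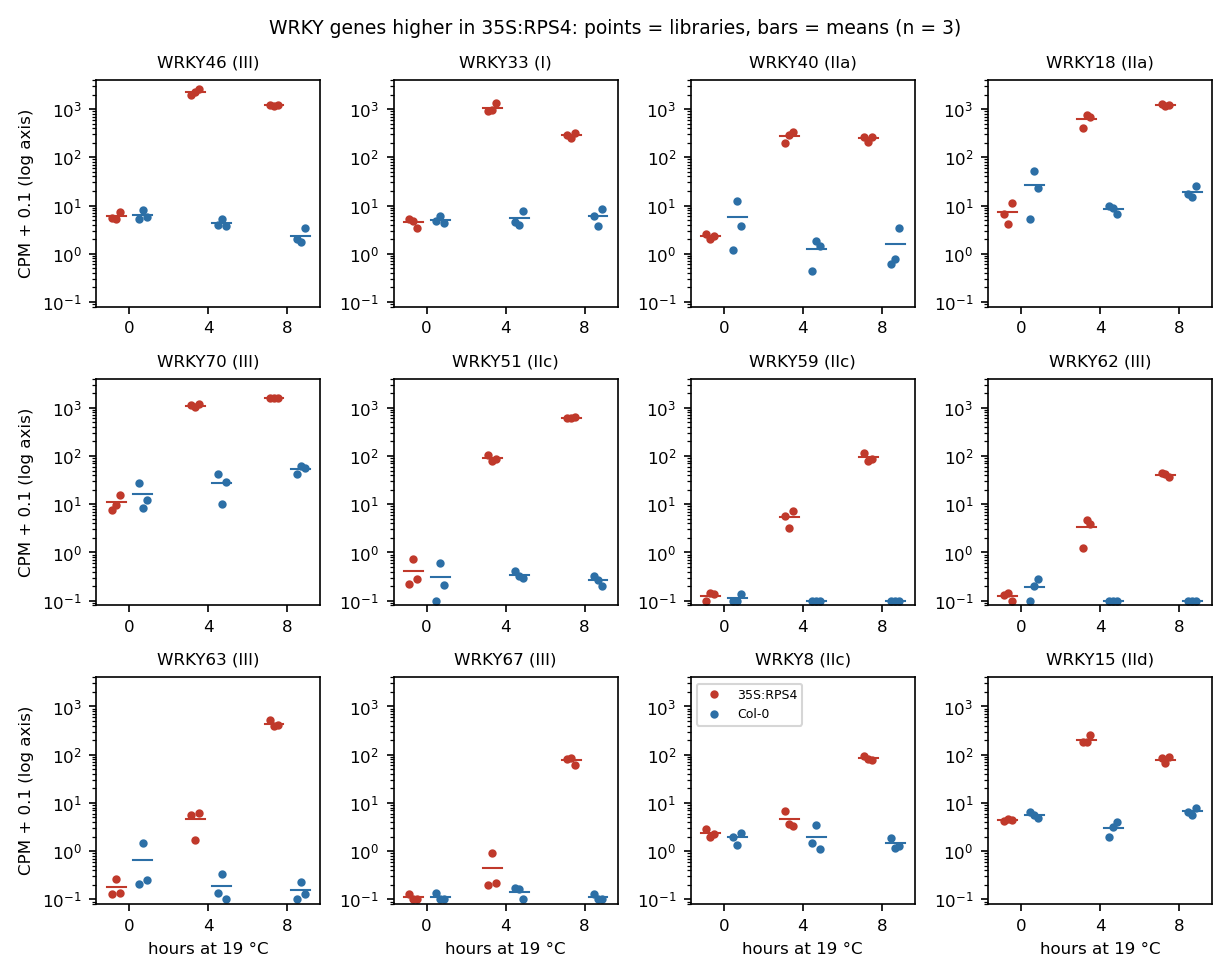
CPM of 12 WRKY genes in each library (vertical log axis, CPM + 0.1; horizontal axis hours at 19 °C), 35S:RPS4 in red to the left of Col-0 in blue, with bars at the means of 3 libraries. At 0 h the lines overlapped for each gene but WRKY15, whose values were slightly lower in 35S:RPS4, and for WRKY46, WRKY33, WRKY40, WRKY18, WRKY70 and WRKY51 they lay far apart at 4 h and 8 h, while WRKY67 and WRKY8 reached 62.3 to 94.0 CPM in 35S:RPS4 at 8 h only.

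Among group I genes, WRKY33, a MAP kinase substrate needed for camalexin synthesis and for resistance to Botrytis, had the largest rise. WRKY33 had 896, 951 and 1356 CPM in 35S:RPS4 at 4 h, against 4.53, 3.92 and 7.74 CPM in Col-0 (log2FC 7.63 ± 0.37 SE, adjusted p = 3.79e-11). WRKY33 had at 8 h 292, 247 and 326 CPM in 35S:RPS4, against 6.05, 3.58 and 8.16 CPM in Col-0 (log2FC 5.60 ± 0.34), still without overlap. WRKY25 and WRKY26, which act with WRKY33 in heat tolerance, were higher at both times (log2FC 4.37 and 5.34 at 4 h, 3.94 and 5.05 at 8 h). At 8 h WRKY1, WRKY2 and WRKY4 were higher too, by log2FC of 1.11 to 2.33. The call of WRKY2 was lost without Col-0 8 h replicate 2 (log2FC 0.96, adjusted p = 0.0013) and with library totals alone (log2FC 0.86).

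Group IIc also held members that were high in 35S:RPS4 after the shift and close to absent in Col-0. WRKY51, which with WRKY50 mediates the repression of jasmonate signalling, had 103, 79.1 and 84.9 CPM in 35S:RPS4 at 4 h, against 0.312, 0.23 and 0.194 CPM in Col-0 (log2FC 8.48 ± 0.48 SE, adjusted p = 2.63e-10). At 8 h it had 628, 609 and 631 CPM in 35S:RPS4, against 0.227, 0.164 and 0.0976 CPM in Col-0 (log2FC 11.86 ± 0.53 SE, adjusted p = 7.5e-12). WRKY50 had 77.2, 42.9 and 76.1 CPM in 35S:RPS4 at 4 h and 119, 113 and 116 CPM at 8 h, against 0.969, 0.691 and 0.713 and 0.809, 0.888 and 1.01 CPM in Col-0 (log2FC 6.36 and 7.0). For both genes every 35S:RPS4 library after the shift was above every Col-0 library. WRKY59 had 5.7, 3.09 and 7.27 CPM in 35S:RPS4 at 4 h and 114, 80.4 and 88.3 CPM at 8 h. It had 0 counts in all 6 Col-0 libraries of these times, so that it was at least 159-fold higher at 4 h and at least 2816-fold higher at 8 h. WRKY75, a gene of phosphate starvation and senescence, had 2.4, 1.45 and 2.79 CPM in 35S:RPS4 at 4 h, against 0, 0.0329 and 0 CPM in Col-0, a ratio of 197 over a single count (95% interval 34.9 to 7845). At 8 h WRKY75 had 16.4, 15.6 and 17.6 CPM in 35S:RPS4, against 0 counts in Col-0, at least 504-fold higher. WRKY28, an activator of the salicylic acid synthesis gene ICS1, was higher at both times (log2FC 5.05 and 5.59). WRKY48, a gene that restrains basal resistance, was called at 4 h (log2FC 4.93 ± 1.37) and narrowly missed a call at 8 h (log2FC 4.59 ± 1.49 SE, adjusted p = 0.0102), where 7 alternatives called it (adjusted p = 0.00213 to 0.00995). The call at 4 h was lost without 35S:RPS4 4 h replicate 1 or 3 or Col-0 4 h replicate 1 or 3 (log2FC 4.43 to 4.89, adjusted p = 0.0118 to 0.0301), and with library totals alone (log2FC 4.51, adjusted p = 0.0105).

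Of group IId, whose proteins bind calmodulin, 5 of 6 tested members were higher at 4 h and 3 at 8 h. WRKY15, a gene of oxidative and salt stress, had 182, 185 and 250.4 CPM in 35S:RPS4 at 4 h, against 1.87, 3.06 and 3.95 CPM in Col-0 (log2FC 6.11 ± 0.25 SE, adjusted p = 6.91e-12). Its values at 8 h were 83.7, 66.6 and 88 CPM in 35S:RPS4, against 6.38, 5.66 and 7.68 CPM in Col-0 (log2FC 3.59 ± 0.22). WRKY11 and WRKY17, related genes that restrain basal resistance to Pseudomonas, were higher at 4 h by 1.69 and 1.18 and not called at 8 h. The call of WRKY17 was lost without any 1 of the 3 35S:RPS4 libraries or of Col-0 replicates 2 and 3 at 4 h (log2FC 0.98 to 1.23, adjusted p = 0.0123 to 0.0407), and with library totals alone (log2FC 0.76). WRKY39, which acts in heat responses, was higher at both times (log2FC 1.39 and 3.22), at 4 h not with library totals alone (log2FC 0.96). WRKY21 was higher at 8 h only (1.54). In group IIe, WRKY22 and WRKY29, which act downstream of a MAP kinase cascade in flagellin responses, were higher at 4 h (log2FC 3.29 and 2.81). WRKY22 was also higher at 8 h (log2FC 1.49), a call lost without 35S:RPS4 8 h replicate 2 or 3 or Col-0 8 h replicate 1 or 2 (log2FC 1.16 to 1.44, adjusted p = 0.0167 to 0.0299), and with library totals alone (log2FC 1.26, adjusted p = 0.0211). Group IIb held WRKY6, a gene of senescence and phosphate responses, higher at both times (log2FC 4.06 and 5.93). WRKY31, of the same group, had 5.42, 6.2 and 6.1 CPM in 35S:RPS4 at 8 h, against 0 counts in Col-0 (at least 183-fold higher). WRKY42, another IIb gene of phosphate responses, was higher at 8 h (log2FC 1.79), a call lost without any 1 of the 35S:RPS4 8 h libraries or Col-0 8 h replicate 2 or 3 (log2FC 1.50 to 1.89, adjusted p = 0.0125 to 0.0395), and with library totals alone (log2FC 1.55, adjusted p = 0.0201).

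**Figure D3:**
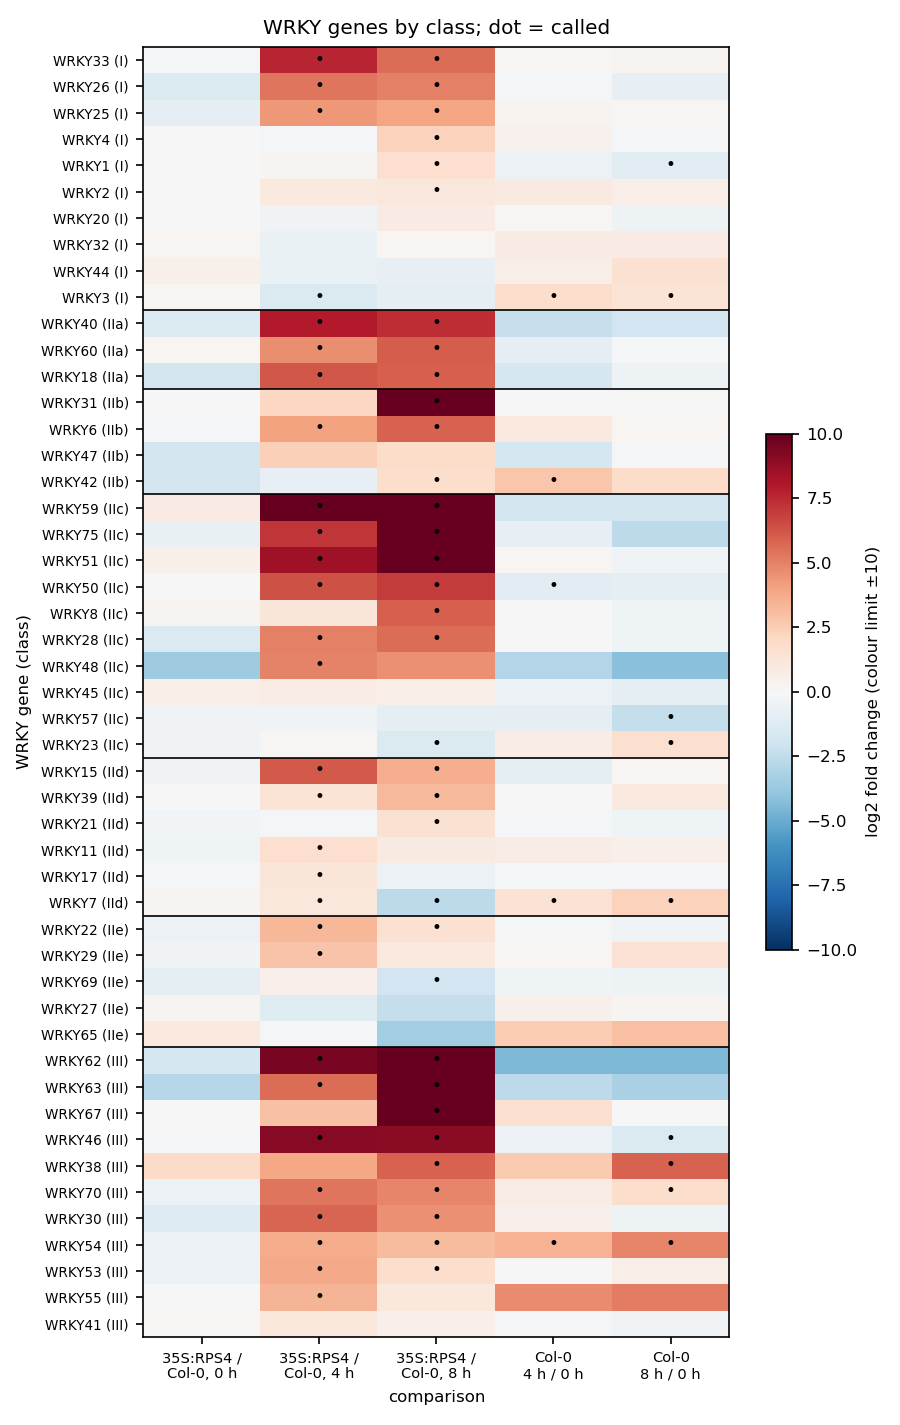
Log2 fold change of the 49 tested WRKY genes (rows, by class and by the value at 8 h) in 5 comparisons (columns), with red for higher and blue for lower in 35S:RPS4, or after the shift in Col-0, colours limited at ±10 and a dot for each call. At 4 h and 8 h the dots fill class IIa and mark 8 and 9 of the 11 class III genes, none stands at 0 h, and fitted values of genes without counts in a group depend on the prior count.

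The effect of the line at 8 h was set against that at 4 h. Of the 49 members 9 differed towards higher in 35S:RPS4 at 8 h and 7 towards lower, beside 13.3% and 22.9% of all genes, and the median of the differences was -0.22 for the members and -0.26 for all genes. Among those that moved up, WRKY8, a gene of virus and fungus responses, had 6.65, 3.64 and 3.15 CPM in 35S:RPS4 at 4 h, against 1.35, 3.32 and 1 CPM in Col-0. WRKY8 had at 8 h 94, 82.1 and 77.7 CPM in 35S:RPS4, against 1.78, 1.08 and 1.2 CPM in Col-0 (difference of log2FC 4.73 ± 0.53, adjusted p = 1.57e-06). WRKY8 thus overlapped slightly between the lines at 4 h, where 4 alternatives called it higher (adjusted p = 0.000289 to 0.00928), and did not at 8 h. WRKY67 (9.37 ± 2.06) and WRKY51 (3.38 ± 0.82) also gained at 8 h. The WRKY67 value depends on a prior count and its call was lost without Col-0 4 h replicate 1 or 2 (log2FC 8.97 to 9.01, adjusted p = 0.0138 to 0.0139), and that of WRKY51 without Col-0 4 h replicate 1 (log2FC 3.18, adjusted p = 0.0125). In the other direction were WRKY15 (-2.52 ± 0.30), WRKY33 (-2.02 ± 0.40) and WRKY53 (-2.05 ± 0.51), all still higher at 8 h. The WRKY53 call was lost without Col-0 8 h replicate 3 (log2FC -1.52, adjusted p = 0.0101). In all, 22 members were higher at both times, 16 of them without a called difference between the times. Another 5 were higher at 4 h and not called at 8 h, and 9 were called higher at 8 h and not at 4 h.

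**Figure D4:**
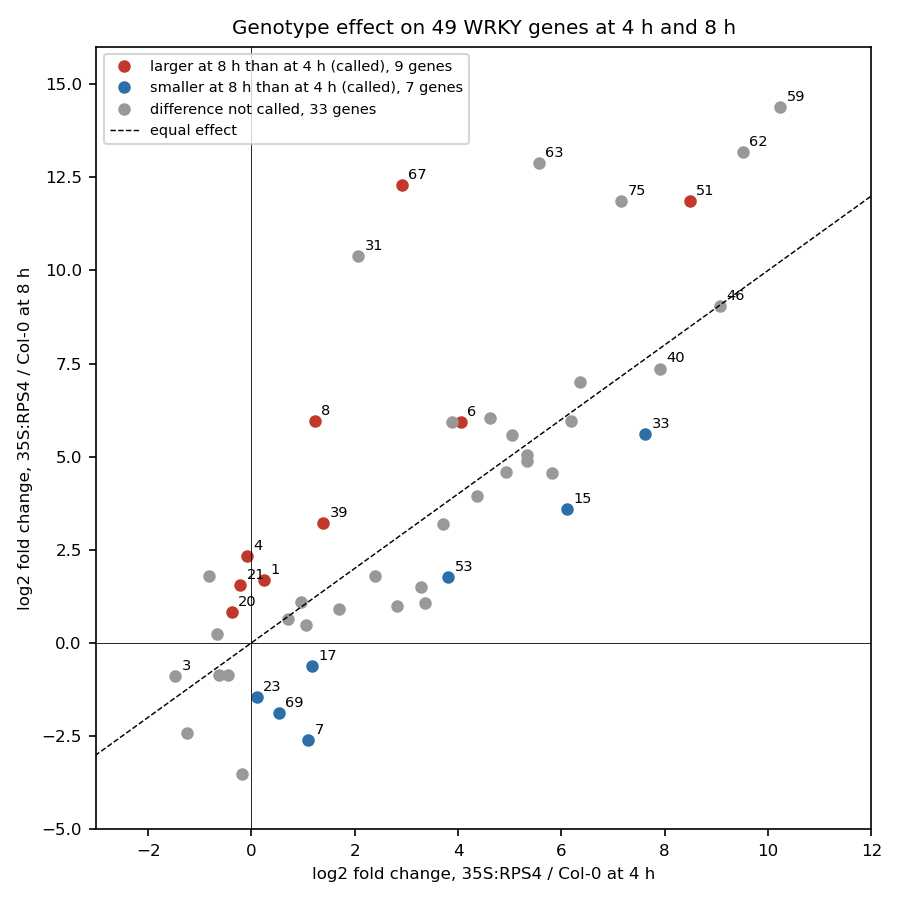
Log2 fold change of 35S:RPS4 over Col-0 at 4 h (horizontal axis) and at 8 h (vertical axis) for the 49 tested WRKY genes, numbers naming genes, with the dashed line at equal effects. Red points (9 genes) had a larger and blue points (7 genes) a smaller effect at 8 h by edgeR's test, and WRKY7 lay at 1.10 at 4 h and -2.61 at 8 h.

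The 4 members that were lower in 35S:RPS4 at a time included 3 whose level in Col-0 rose after the shift. WRKY3, a group I gene that acts in resistance to necrotrophs, had 19.2, 23.4 and 14.8 CPM in 35S:RPS4 at 4 h, against 52.4, 56.9 and 50.2 CPM in Col-0 (log2FC -1.47 ± 0.23 SE, adjusted p = 3.9e-05), with no overlap. WRKY7, a IId gene that restrains basal resistance, had 3.27, 4.11 and 5.74 CPM in 35S:RPS4 at 8 h, against 29.9, 23.7 and 26.9 CPM in Col-0 (log2FC -2.61 ± 0.30 SE, adjusted p = 5.44e-07). At 4 h it had 22.5, 36.6 and 34.8 CPM in 35S:RPS4, against 15.1, 14 and 14.9 CPM in Col-0 (log2FC 1.10 ± 0.28 SE, adjusted p = 0.0037). It was the only member called in opposite directions at 4 h and 8 h (difference -3.71 ± 0.41, adjusted p = 1.44e-06). The rise at 4 h was lost without 35S:RPS4 4 h replicate 2 or 3 or any 1 of the Col-0 4 h libraries (log2FC 0.97 to 1.12, adjusted p = 0.0121 to 0.0178), and with library totals alone (log2FC 0.67, adjusted p = 0.0413). The IIc gene WRKY23, which acts in auxin responses of roots and embryos, had 4.75, 5.13 and 5.14 CPM in 35S:RPS4 at 8 h, against 18.1, 11.9 and 11.2 CPM in Col-0 (log2FC -1.46 ± 0.29 SE, adjusted p = 0.000207). WRKY69 of group IIe, at low levels, had 0.538, 0.902 and 0.638 CPM in 35S:RPS4 at 8 h, against 1.59, 3.35 and 2.86 CPM in Col-0 (log2FC -1.88 ± 0.39 SE, adjusted p = 0.000341). In each of the 4 genes all 35S:RPS4 libraries of the time named were below all Col-0 libraries.

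In Col-0, which went through the shift without the transgene, the share of WRKY genes called, both directions together, was near that of all genes. By direction, on few members, the share lower was below that of all genes at both times, and the share higher was above it at 4 h. At 4 h against 0 h, 4 members were higher (8.16%) and 1 lower (2.04%), beside 3.87% and 4.79% of all genes. At 8 h against 0 h, 6 were higher (12.2%) and 3 lower (6.12%), beside 10.5% and 11.8%. The median log2FC of the members was 0.03 at 4 h and -0.13 at 8 h, and that of all genes -0.02 and -0.04. WRKY54 had 2.95, 1.13 and 0.404 CPM at 0 h, 29.7, 6.45 and 14.6 CPM at 4 h and 47.6, 42.4 and 44.6 CPM at 8 h in Col-0 (log2FC 3.49 ± 0.58 at 4 h and 4.90 ± 0.60 at 8 h). Each library at 4 h was above each at 0 h, and each at 8 h above each at 4 h. WRKY7 had 8.65, 3.19 and 4.63 CPM at 0 h, 15.1, 14 and 14.9 CPM at 4 h and 29.9, 23.7 and 26.9 CPM at 8 h (log2FC 1.42 ± 0.29 and 2.29 ± 0.30). WRKY3 had 17.2, 13.7 and 15.1 CPM at 0 h, 52.4, 56.9 and 50.2 CPM at 4 h and 56.6, 29.6 and 34.5 CPM at 8 h (log2FC 1.79 ± 0.23 and 1.39 ± 0.23). Neither gene had a value after the shift that reached down into the range of 0 h. WRKY70 rose by 8 h (log2FC 1.76 ± 0.44) and WRKY23 likewise (1.62 ± 0.29). WRKY46 had 5.14, 8.04 and 5.73 CPM at 0 h, 3.88, 5.17 and 3.69 CPM at 4 h and 1.91, 1.61 and 3.29 CPM at 8 h, a fall at 8 h (log2FC -1.47 ± 0.25), and WRKY1 fell by 1.05 on the log2 scale.

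The remaining calls in Col-0 were of members under 5 CPM in every Col-0 library: WRKY42 was higher and WRKY50 lower at 4 h, and WRKY38 was higher and WRKY57 lower at 8 h. With Col-0 0 h replicate 1 as the only library of 0 h, 1 member was higher and 0 lower at 4 h, and 4 were higher and 1 lower at 8 h. In that fit the calls of WRKY7 and WRKY54 at 4 h were lost (log2FC 0.76 and 2.52, adjusted p = 0.137 and 0.0346), as were those of WRKY70 (0.96, adjusted p = 0.192), WRKY3 (1.23, adjusted p = 0.0153) and WRKY1 (-0.88, adjusted p = 0.000133) at 8 h. Leaving out Col-0 0 h replicate 3 also ended the call of WRKY7 at 4 h (log2FC 1.31, adjusted p = 0.0114), and a fit of only the groups compared ended those of WRKY7 and WRKY54 at 4 h and WRKY70 at 8 h (adjusted p = 0.0209, 0.0161 and 0.0106). The call of WRKY70 at 8 h was lost without Col-0 0 h replicate 2 or 3 or Col-0 8 h replicate 2 (log2FC 1.45 to 1.64, adjusted p = 0.0137 to 0.0198). Calls of WRKY38, WRKY42 and WRKY50 were each lost without any 1 of the Col-0 0 h libraries (adjusted p of 0.0103 to 0.0343 over these and other libraries), and that of WRKY57 without Col-0 0 h replicate 2 or Col-0 8 h replicate 2 or 3 (0.0154 to 0.0262).

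**Figure D5:**
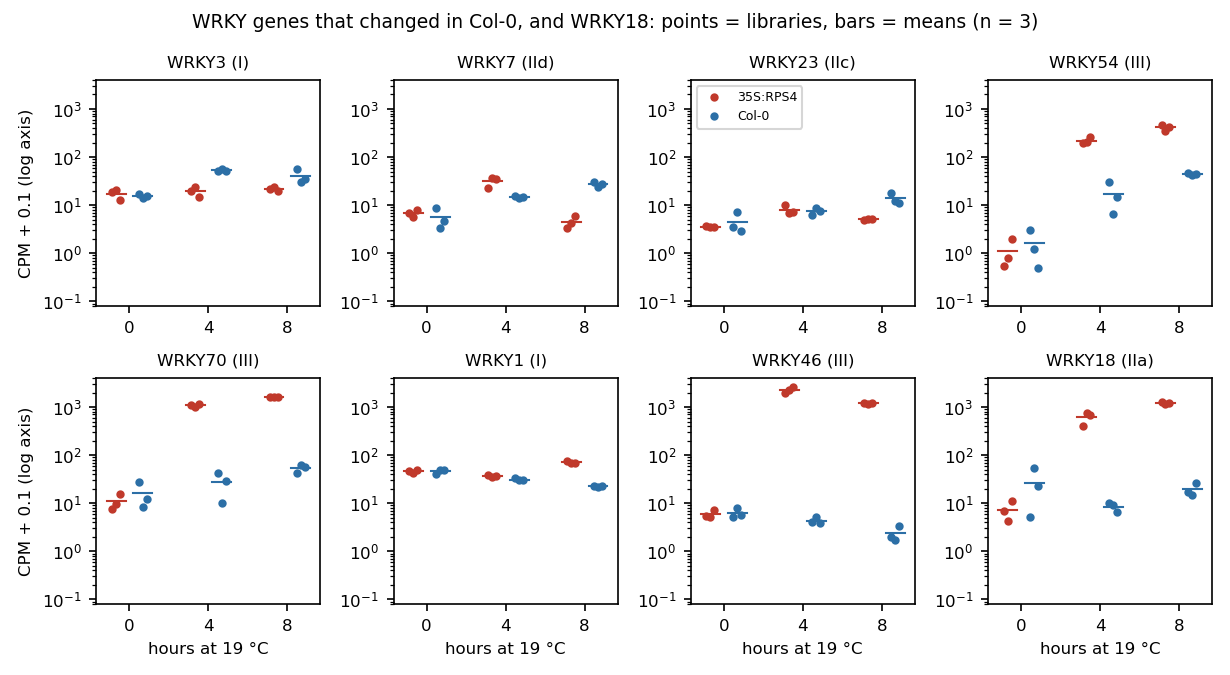
CPM of 7 WRKY genes called in Col-0 after the shift, and of WRKY18, in each library (vertical log axis, CPM + 0.1; horizontal axis hours at 19 °C), 35S:RPS4 in red to the left of Col-0 in blue, with bars at the means of 3 libraries. WRKY3, WRKY7 and WRKY23 rose in Col-0 and lay lower in 35S:RPS4 at 4 h or 8 h, WRKY54 and WRKY70 rose in Col-0 and lay higher in 35S:RPS4, and WRKY18 spread from 5.17 to 52.7 CPM over the Col-0 libraries at 0 h.

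The response to the shift was compared between the lines as an interaction. At 4 h the change from 0 h was more positive in 35S:RPS4 than in Col-0 for 25 members and more negative for 1, beside 15% and 10.2% of all genes, with a median of 3.16 (all genes -0.01). At 8 h it was more positive for 30 and more negative for 2, beside 24.9% and 27.3%, with a median of 3.63 (all genes -0.06). WRKY3 was the 1 negative member at 4 h (-1.65 ± 0.32) and was joined at 8 h by WRKY7 (-2.92 ± 0.42), its own value there being -1.07 ± 0.32. The call of WRKY3 at 8 h was lost without any 1 of 7 libraries (log2FC -1.07 to -0.74, adjusted p = 0.0139 to 0.0226), by limma voom (-0.99, adjusted p = 0.0117) and with Col-0 0 h replicate 1 alone (-0.91, adjusted p = 0.0703). With Col-0 0 h replicate 1 as the only library of its group the counts were 17 and 0 at 4 h and 20 and 2 at 8 h. WRKY3 at 4 h was then at -1.49 (adjusted p = 0.0148). These comparisons share the 35S:RPS4 and Col-0 libraries with those above and are not separate evidence.

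There were 8 tested members (WRKY27, WRKY32, WRKY41, WRKY44, WRKY45, WRKY47, WRKY57 and WRKY65) that were called neither between the lines at any time nor in the difference of 8 h and 4 h. WRKY47 was called in the interactions alone, and those calls were lost under 11 alternatives at each time. Between the lines WRKY27 was called lower at 8 h in 4 alternatives (log2FC -4.42 to -2.44), WRKY47 higher at 4 h in 1 and at 8 h in 2, WRKY32 lower at 4 h in 1, and WRKY57 and WRKY65 lower at 8 h in 1 each. WRKY32, a group I gene, had 8.7, 11.8 and 9.25 CPM in 35S:RPS4 at 4 h, against 15.6, 16 and 15.5 CPM in Col-0. Its levels at 8 h were 17.1, 18.9 and 18.5 CPM in 35S:RPS4, against 18.6, 13.7 and 14.1 CPM in Col-0. The 11 members not tested were WRKY9, WRKY12, WRKY13, WRKY14, WRKY35, WRKY36, WRKY56, WRKY61, WRKY66, WRKY72 and WRKY74. WRKY14, WRKY35 and WRKY56 had 0 counts in all 18 libraries. Besides WRKY66, WRKY72 had counts mainly in 35S:RPS4 at 8 h, 31 against 0 in Col-0 (at least 11.1-fold higher), and WRKY13, which acts in stem development, had 0 counts in 35S:RPS4 at 4 h, against 22 in Col-0 (at least 5.72-fold higher in Col-0).

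W-boxes were not confined to the genes that rose. Of the 28 members higher at 4 h, 13 held a W-box in the window of 250 bases and 7 held at least 2. Of the 37 members higher at 4 h or 8 h, 14 held one and 7 held at least 2, beside 28.4% and 6.18% of all protein-coding genes. Of the 12 tested members never called higher at 4 h or 8 h, 4 held one and 3 held at least 2, and of the 11 members not tested 4 held one and 0 held at least 2. Among the 10 most abundant members per kilobase in 35S:RPS4, 3 held one at 4 h (WRKY33, WRKY15 and WRKY25) and 1 at 8 h (WRKY33), whereas WRKY46, WRKY70, WRKY18 and WRKY40, in both sets, held none.

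Genes that work with WRKY proteins moved as well, in lists chosen with earlier results of these data known. Of all genes tested, 16.6% were higher and 12.4% lower at 4 h, and 26.6% higher and 30.1% lower at 8 h. Of 13 VQ genes (11 tested) 9 were higher at 4 h and 7 at 8 h, and 0 were lower, with a median of 5.15 and 2.31. The 3 largest calls at 4 h among those at 5 CPM or more were AT1G78410, with 212, 253 and 319 CPM in 35S:RPS4, against 0.485, 0.625 and 0.713 CPM in Col-0 (log2FC 8.73 ± 0.36), AT2G22880 (log2FC 6.33 ± 1.17) and SIB1, a partner of WRKY33 (log2FC 5.32 ± 0.29). All 3 had no overlap between the lines at 4 h, and AT2G22880 was not called at 8 h (log2FC 2.31 ± 1.31). Of 9 MAP kinase cascade genes 8 were higher at 4 h and 9 at 8 h, with a median of 3.36 and 2.71, led at 4 h by MPK11, MKK4 and MPK3 (log2FC 9.36, 5.87 and 5.76). MPK3, a kinase of WRKY33, had 672, 1102 and 1111 CPM in 35S:RPS4 at 4 h, against 15.3, 17.2 and 20.7 CPM in Col-0.

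Of 10 known WRKY targets 7 were higher and 0 lower at 4 h, and 7 higher and 1 lower at 8 h, with a median of 4.45 and 5.23. The shares of all genes higher and lower were 16.6% and 12.4% at 4 h, and 26.6% and 30.1% at 8 h. This list too was chosen with earlier results of these data known. PAD3, the last enzyme of camalexin synthesis and a target of WRKY33, had 86.2, 40.1 and 106 CPM in 35S:RPS4 at 4 h, against 0.0346, 0.165 and 0.13 CPM in Col-0 (log2FC 9.39 ± 0.52 SE, adjusted p = 1.94e-10). ICS1, the salicylic acid synthesis gene, and FRK1, a marker of flagellin responses, followed (log2FC 7.60 and 6.66). These 3 are named for the size of their rise. CYP71A13, also of the list, had 7.15, 3.25 and 7.59 CPM in 35S:RPS4 at 4 h, against 4.85, 7.14 and 4.44 CPM in Col-0. At 8 h CYP71A13 had 98.3, 33 and 52.1 CPM in 35S:RPS4, against 1.97, 2.37 and 2.15 CPM in Col-0. PR1, the classical marker of salicylic acid responses, was not called at 4 h, with 0.2, 1.06 and 0.0404 CPM in 35S:RPS4, against 0.173, 0.263 and 0.0324 CPM in Col-0 (log2FC 1.50 ± 0.81 SE, adjusted p = 0.134). At 8 h PR1 had 976, 817 and 749.8 CPM in 35S:RPS4, against 0.0647, 0.164 and 0.13 CPM in Col-0 (log2FC 12.74 ± 0.65 SE, adjusted p = 2.8e-11). At 4 h, then, 28 WRKY genes were higher in 35S:RPS4 while PR1 was at about 1 CPM or less in every library of both lines.

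Markers of cell types moved little at 4 h, when 0 of 5 leaf, 0 of 3 guard cell and 0 of 3 vasculature genes passed the test. At 8 h all 5 leaf genes were lower in 35S:RPS4 (median log2FC -1.70), 1 guard cell gene was higher and 1 lower, and 1 vasculature gene and the flower gene SEP3 were lower. Of all genes, 16.6% were higher and 12.4% lower at 4 h, and 26.6% higher and 30.1% lower at 8 h. Jasmonate genes were higher for 3 of 6 at 4 h and 2 of 6 at 8 h. Their mean log2 CPM per library was 7.55 to 8.32 in 35S:RPS4 at 4 h and 5.60 to 7.62 at 8 h, against 2.68 to 4.25 and 2.76 to 4.91 in Col-0. The part of these differences in the WRKY values was not tested.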

How the data were processed

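Poly(A) RNA of leaves was sequenced in paired-end mode in 18 libraries. Per the labels, the authors checked reads with FastQC 0.11.2, aligned them to TAIR10 with TopHat2 2.0.10 and deposited raw read counts per gene made with HTSeq. The HTSeq version and strand setting were not given in the sources used here. The 5 summary lines of the table stayed out of library sizes, reads in no gene being 48.5% to 49.2% of all lines summed, and 0 columns were left without a sample. Libraries of a group were not copies of each other (chi-square statistic per gene 12.6 to 114).

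Counts were analysed in R 4.3.3 with edgeR 4.0.16 (quasi-likelihood test, TMM, filterByExpr, 1 mean per group, 20023 of 32678 genes kept), with DESeq2 1.42.0 and limma 3.58.1 (voom) as alternatives. The study's thresholds were kept (adjusted p under 0.01, log2FC above 1 in size). SE was the log2FC over the square root of F. Genes at 0 counts in a group were set to 3 counts over the group, and ratios over 1 to 3 counts have 95% exact binomial intervals, both for counting error only. Simulated data tested the fit: for the line effect at 4 h over 20023 genes edgeR recovered 87% of 3-fold and 93% of 8-fold changes with 2 false calls, and for the interaction at 4 h 44% and 92% with 1. The simulation gave every gene the same dispersion and changed 200 genes, whereas 3315 were called higher and 2490 lower at 4 h in the data. Its rates therefore need not hold for these data, least of all for genes of wide spread. Positions and upstream windows came from RefSeq TAIR10.1 by locus code, in which 3 members carry other symbols (WRKY1 as ZAP1, WRKY44 as TTG2, WRKY63 as ABO3). Values in every library are given for the 6 largest rises and every fall between the lines, the 3 largest changes of each sign in Col-0 and between times, and groups IIa and III (some by means), where a called gene reached 5 CPM in its higher group. Members and lists were chosen with earlier results of these data known. Alternatives were median-of-ratios or total scaling, no filter or 1 CPM in 3 libraries, other tools, fits of only the groups compared, a replicate block, leaving out each library and, added after seeing the data, Col-0 0 h replicate 1 as the only library of its group. Proteins were not analysed here. Plots were made with matplotlib 3.10.9 under Python 3.11.15.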

Additional observations from a re-analysis of the deposited data

Results flagged for a closer look

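The response to the shift differed between the lines by a test of the difference itself for many members. In edgeR's interaction of line and shift, 25 members were more positive and 1 more negative in 35S:RPS4 than in Col-0 at 4 h. Of all genes, 15% and 10.2% were so called. At 8 h 30 members were more positive and 2 more negative, beside 24.9% and 27.3% of all genes. The line effect also differed between the times, towards higher in 35S:RPS4 at 8 h for 9 members (18.4%) and towards lower for 7 (14.3%). Of all genes, 13.3% and 22.9% did so, and the medians of members and all genes were close (-0.22 and -0.26). The differences of log2FC (8 h minus 4 h) towards higher were 9.37 for WRKY67, 4.73 for WRKY8, 3.38 for WRKY51, 2.43 for WRKY4, 1.87 for WRKY6, 1.84 for WRKY39, 1.76 for WRKY21, 1.44 for WRKY1 and 1.2 for WRKY20. Those towards lower were -3.71 for WRKY7, -2.52 for WRKY15, -2.42 for WRKY69, -2.05 for WRKY53, -2.02 for WRKY33, -1.80 for WRKY17 and -1.56 for WRKY23. WRKY20 was called neither at 4 h nor at 8 h on its own, and its difference was lost without Col-0 8 h replicate 2 (log2FC 0.99, adjusted p = 0.00307). The difference of WRKY6 was lost without Col-0 4 h replicate 2, Col-0 8 h replicate 2 or 3 or 35S:RPS4 8 h replicate 1 (1.61 to 1.80, adjusted p = 0.0121 to 0.0194) or by limma voom (adjusted p = 0.0246), that of WRKY17 without Col-0 4 h replicate 3, Col-0 8 h replicate 3 or 35S:RPS4 8 h replicate 1 (-1.68 to -1.58, adjusted p = 0.0126 to 0.013), and that of WRKY23 without 35S:RPS4 4 h replicate 1, Col-0 4 h replicate 1 or Col-0 8 h replicate 1 (-1.45 to -1.31, adjusted p = 0.0111 to 0.0119) or with library totals alone (-1.38, adjusted p = 0.0169). The differences of WRKY42 and WRKY63 were not called in the fit reported and were called higher at 8 h in 8 alternatives each (2.61 to 3.20 and 6.90 to 8.81). The losses of WRKY67, WRKY51 and WRKY53 stand in the report.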

How the results depend on the processing

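Of 151 member calls over the 8 comparisons, 104 were kept in every alternative and 47 were lost in at least 1, and the cause of the losses was not tested. The members lower at 4 h numbered 2 with library totals and 2 without a filter (1 in the fit reported), and those lower at 8 h 5 with library totals and 5 by voom (3). In Col-0 at 4 h, 1 was higher in a fit of only the groups compared and 1 with Col-0 0 h replicate 1 alone (4), and the lower members numbered 0 with library totals, by voom, in a fit of only the groups compared, with the block and with that library alone, and 2 by DESeq2 (1). In Col-0 at 8 h 1 was lower with that library alone (3), and the interaction at 4 h had 2 lower with library totals and 0 with that library alone (1). WRKY18 in Col-0 at 8 h reversed with that library alone (log2FC 1.89, adjusted p = 0.00941, against -0.48). Leaving out 1 library gave, for higher and lower members, 0 to 0 and 0 to 1 between the lines at 0 h, 24 to 28 and 1 to 2 at 4 h, 29 to 33 and 3 to 4 at 8 h, 2 to 6 and 0 to 2 in Col-0 at 4 h, 4 to 6 and 2 to 5 at 8 h, 19 to 25 and 1 to 1 for the interaction at 4 h, 25 to 30 and 1 to 2 at 8 h, and 7 to 11 and 5 to 7 for 8 h minus 4 h.

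Replicate numbers did not pair the libraries: same-numbered libraries deviated from their group means with correlations from -0.22 to 0.27 (median 0), 9 of 45 over 0.1, and a library correlated best with its own number in 29 of 90 cases. With the replicate block 27 members were higher at 4 h and 31 at 8 h, and in Col-0 at 4 h 0 were lower. The block ended the calls between the lines of WRKY17 and WRKY55 at 4 h and WRKY42 at 8 h (adjusted p = 0.0108 to 0.0125), and gave calls of WRKY67 at 4 h and WRKY48 at 8 h. At the depth of these libraries members under about 0.1 CPM could not be compared.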
